A study of Rattus norvegicus with 9 samples.

Results

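The 9 genes described here encode the non-collagen part of the cartilage matrix and its master regulator: Acan, Hapln1, Comp, Matn1, Matn3, Cnmd, Epyc, Prg4 and Sox9. They were taken by symbol from a table of 32623 gene rows, in which each had a single row, and all 9 were found. Poly(A) RNA had been sequenced from the femur of Sprague-Dawley rats in 9 libraries, 3 per group, each holding 54992823 to 66531156 counts. The groups were rats given Desertliving Cistanche, a herb of Chinese medicine (treated), ovariectomized rats, and Sprague-Dawley rats whose labels name no surgery or agent (control). All 9 are labelled WT, and by the title of the series the herb was given after ovariectomy. Dose, duration, age, the part of the femur and any pooling of animals are not stated in the labels. Separate animals are not named for the replicates, so p-values measure only the spread between these libraries, which may be technical.

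Cartilage resists compression because aggrecan, the product of Acan, is packed with charged chondroitin sulfate chains that hold water inside a collagen mesh. The link protein made from Hapln1 locks aggrecan onto hyaluronan, and the matrilins Matn1 and Matn3 and the pentameric protein Comp tie aggrecan, collagen fibrils and other matrix proteins together. Sox9 is the transcription factor without which chondrocytes do not form, and it drives Col2a1, Acan, Hapln1 and other matrix genes. As a set, these genes mark the growth plate and the articular cartilage of a long bone, though not each gene marks both. Comp is also made by tendon, and Prg4 marks the joint surface and the synovial lining.

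Levels of the members, as deposited FPKM (scaled for gene length and library depth, hence comparable between genes), spanned a wide range. Prg4 was the most abundant with a mean of 70.1 FPKM over the 9 libraries, followed by Comp with 35.6, Acan with 11.02, Cnmd with 6.82 and Hapln1 with 4.57 FPKM. Matn3 (0.734 FPKM), Sox9 (0.701 FPKM), Epyc (0.0978 FPKM) and Matn1 (0.0910 FPKM) lay below the mean of 1 FPKM that a gene needed to be tested, a filter passed by 5 members and by 13886 genes in all. Ranges of neighbours in this order overlapped over the libraries, as between Acan (4.48 to 30.7 FPKM), Cnmd (0.936 to 17.2 FPKM) and Hapln1 (1.63 to 12.9 FPKM), or Matn3 (0.266 to 1.69 FPKM) and Sox9 (0.330 to 1.42 FPKM). Each of the 5 tested members had a group mean above 1 FPKM in every group. The 9 genes lie on 9 different chromosomes, and the table's own ontology terms put 5 of them in the extracellular matrix, give calcium binding to 4 (Acan, Comp, Matn1 and Matn3) and hyaluronic acid binding to Acan and Hapln1.

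The sample was checked against markers of the tissues a femur can carry. Of the cartilage collagens, 8 of 8 had counts, with summed levels of 43.2 to 168 FPKM in treated, 51.5 to 91.9 FPKM in ovariectomized and 101 to 306 FPKM in control libraries. All 10 osteoblast and bone matrix genes had counts (1102 to 2376, 1118 to 2837 and 1809 to 3236 FPKM in the same order of groups). Skeletal muscle genes were present as well, 8 of 8 with a row, at 532 to 1063 FPKM in treated, 712 to 3196 FPKM in ovariectomized and 229 to 715 FPKM in control libraries. Adipocyte genes (10 of 10) summed to 1101 to 1826, 1031 to 1514 and 404 to 902 FPKM, and tendon and fibroblast genes (10 of 10 with a row) to 260 to 332, 350 to 488 and 308 to 474 FPKM, again for treated, ovariectomized and control libraries. Erythroid genes (9 of 9 with a row) reached 48648 to 68210, 63603 to 73364 and 74543 to 149034 FPKM. The value of 149034 FPKM came from control replicate 2, and the other controls had 75991 and 74543 FPKM. The osteoblast sum was highest within its group in treated replicate 2 (2376 FPKM, against 1211 and 1102 FPKM in the other treated libraries) and in control replicate 3 (3236 FPKM, against 1884 and 1809 FPKM in the other controls). The adipocyte sum was lowest in the same libraries, at 1101 FPKM against 1689 and 1826 FPKM among treated libraries and 404 FPKM against 902 and 826 FPKM among controls. Within their groups these are also the libraries with the highest levels of most of the 9 genes. The cartilage collagen sum was also highest within its group in treated replicate 2 (168 FPKM) and in control replicate 3 (306 FPKM). The ovariectomized group differed for most of the 9 genes, though not for this collagen sum. Its replicate 3 had the highest osteoblast sum (2837 FPKM) and the lowest adipocyte sum (1031 FPKM). The collagen sum was highest in that library too (91.9 FPKM, against 54.7 and 51.5 FPKM). Matn3 and Prg4 were highest there, but Acan, Hapln1, Cnmd and Sox9 were highest in ovariectomized replicate 1 and Comp in replicate 2. None of these lists had a marker at 0 in all libraries, and the part of these tissues in the results that follow was not tested.

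Ovariectomy, a model of the loss of estrogen, was compared with control first. The link protein gene Hapln1, the chondrocyte membrane protein gene Cnmd and the aggrecan gene Acan had lower estimates in ovariectomized rats, and Comp and Prg4 had higher ones (3 of 5 lower, against 51.3% of all genes tested). Hapln1 was at a fitted 0.277 and Cnmd at 0.206 times the control level, and for these 2 genes every ovariectomized library lay below every control library. None of these differences passed an adjusted p of 0.05 in edgeR's quasi-likelihood test, where 0% of the 13886 genes did, nor in DESeq2, where 0.425% did.

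Acan, on chromosome 1 (140762758 to 140824441, plus strand; no source used here names the build of these coordinates), had 9.48, 4.78 and 7.46 FPKM in ovariectomized libraries and 16.9, 6.63 and 30.7 FPKM in control libraries. Control replicate 2 lay among the ovariectomized values, so the groups overlapped. The log2 fold change was -1.34 ± 0.57 (SE), with a 95% interval of -2.64 to -0.05 and an edgeR adjusted p of 0.974. In bulk tissue, fewer chondrocytes and less RNA per chondrocyte cannot be told apart. Hapln1 (chromosome 2, 18354542 to 18419071, plus strand) had 2.55, 1.63 and 2.31 FPKM in ovariectomized libraries against 6.74, 3.38 and 12.9 FPKM in controls. These ranges did not touch, and the log2 fold change was -1.85 ± 0.64 (interval -3.31 to -0.39, edgeR adjusted p = 0.902). Cnmd (chromosome 15, 61923299 to 61947764, minus strand) encodes chondromodulin, which keeps blood vessels out of cartilage. Its values were 3.81, 0.936 and 2.40 FPKM in ovariectomized libraries and 12.3, 4.62 and 17.2 FPKM in controls. The groups did not overlap, at a log2 fold change of -2.28 ± 0.79 (interval -4.09 to -0.46, edgeR adjusted p = 0.902). For Hapln1 and for Cnmd the 2-sided exact permutation p was 0.1, and for Acan 0.3.

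Comp (chromosome 16, 20798437 to 20807070, minus strand), which is also made by tendon, had 45.3, 46.2 and 39.7 FPKM in ovariectomized libraries and 34.0, 25.6 and 50.3 FPKM in controls. Control replicate 3 was above every ovariectomized library and the other controls below, with a log2 fold change of 0.22 ± 0.21 (interval -0.26 to 0.71). Prg4 (chromosome 13, 67672878 to 67688477, minus strand) encodes lubricin, the lubricant of joint surfaces. It stood at 43.7, 94.1 and 101 FPKM in ovariectomized libraries against 38.2, 44.6 and 76.2 FPKM in controls, with a log2 fold change of 0.55 ± 0.42 (interval -0.42 to 1.52) and overlapping groups. Without control replicate 2 Comp was at 0.03, and without control replicate 3 at 0.48. In this comparison 3 of the 5 tested members (Acan, Hapln1 and Cnmd) were lower at an unadjusted edgeR p under 0.05, against 1.72% of all genes tested, and 2 of 5 were lower without overlap, against 2.05%. The median log2 fold change of the 5 was -1.34, beside -0.0037 over all genes tested. These members were proposed with earlier results of the same libraries known, so the counts describe them and do not test them. Without control replicate 3, the library highest in 7 of the 9 members, Acan was at -0.77, Hapln1 at -1.30 and Cnmd at -1.89 on the log2 scale.

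**Figure D1:**
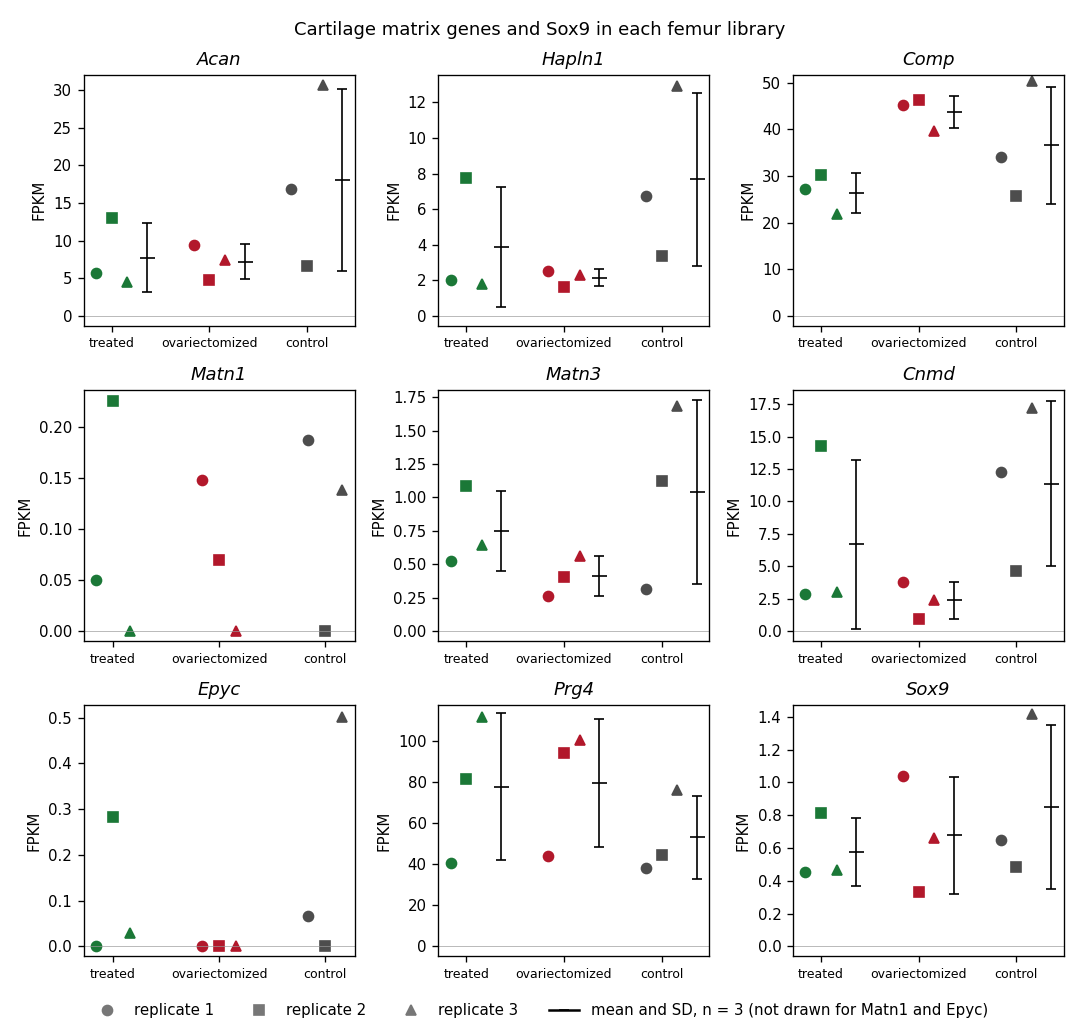
FPKM of each member in treated, ovariectomized and control libraries (n = 3 each), with a symbol shape for each replicate number and the mean ± SD beside the points, except for Matn1 and Epyc, some of whose libraries are listed at 0. Control replicate 3 is the highest point for 7 genes, and treated replicate 2 stands above the other treated libraries for every member but Prg4.

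The comparison of treated with ovariectomized rats asks what the herb changes. Comp was the member that differed most clearly relative to its spread, at 0.588 times the ovariectomized level, and the other tested members had intervals that span 0. Estimates were lower for 2 of the 5 tested members, against 51% of all genes tested. Treated libraries had 27.2, 30.3 and 21.8 FPKM of Comp, against 45.3, 46.2 and 39.7 FPKM in ovariectomized libraries. Every treated library was below every ovariectomized one, which held for 3.93% of all genes tested, and 3.08% were lower at an unadjusted edgeR p under 0.05. The log2 fold change was -0.77 ± 0.21 (SE; interval -1.26 to -0.28, unadjusted p = 0.00672 and adjusted p = 0.929 in edgeR), and it stayed between -0.87 and -0.64 with each library left out in turn. Adjusted over all genes, 0% passed in edgeR and 0.274% in DESeq2, where Comp had an adjusted p of 0.117. The 2-sided exact permutation p for Comp was 0.1, the smallest that 3 libraries against 3 allow.

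Acan had 5.78, 13.0 and 4.48 FPKM in treated libraries and 9.48, 4.78 and 7.46 FPKM in ovariectomized libraries, a log2 fold change of 0.06 ± 0.56 (interval -1.22 to 1.33). Treated replicate 2 was above, and treated replicate 3 below, every ovariectomized library. Hapln1 was at 2.03, 7.76 and 1.82 FPKM in treated libraries against 2.55, 1.63 and 2.31 FPKM in ovariectomized ones (0.80 ± 0.62, interval -0.63 to 2.22), and Cnmd at 2.88, 14.2 and 2.99 FPKM against 3.81, 0.936 and 2.40 FPKM (1.45 ± 0.77, interval -0.33 to 3.22). In all 3 genes treated replicate 2 was the highest of the 6 libraries compared. Without it the estimates were -0.53 for Acan and -0.21 for Hapln1, on the other side of 0, and 0.26 for Cnmd. Prg4 was at 40.5, 81.3 and 111 FPKM in treated libraries and 43.7, 94.1 and 101 FPKM in ovariectomized libraries (-0.08 ± 0.42, interval -1.04 to 0.89), 1 low and 2 high libraries in each group.

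Treated rats were also compared with controls. Among the tested members, 4 had lower estimates (50% of all genes tested did) and Prg4 a higher one. All 5 had overlapping groups, and 2.66% of all genes were lower without overlap. The median of the 5 log2 fold changes was -0.83, against -0.0 over all genes tested, and at an adjusted p of 0.05 edgeR called 0 of them (0% of all genes) and DESeq2 0 (1.10% of all genes). Acan was at -1.29 ± 0.57 (SE; interval -2.58 to 0.01), Hapln1 at -1.05 ± 0.62 (interval -2.48 to 0.37) and Cnmd at -0.83 ± 0.76 (interval -2.57 to 0.90). Comp, at -0.54 ± 0.21 (interval -1.03 to -0.05), was lower at an unadjusted edgeR p of 0.0334, as were 4.75% of all genes tested, and Prg4 was at 0.47 ± 0.42 (interval -0.50 to 1.44). Without treated replicate 2 the median over the 5 was -1.88, with Hapln1 at -2.06 and Cnmd at -2.02, and without control replicate 3 it was -0.45, with Acan at -0.72, Hapln1 at -0.50 and Comp at -0.29. Each group's libraries enter 2 of the 3 comparisons, so the estimates are not independent of each other.

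**Figure D2:**
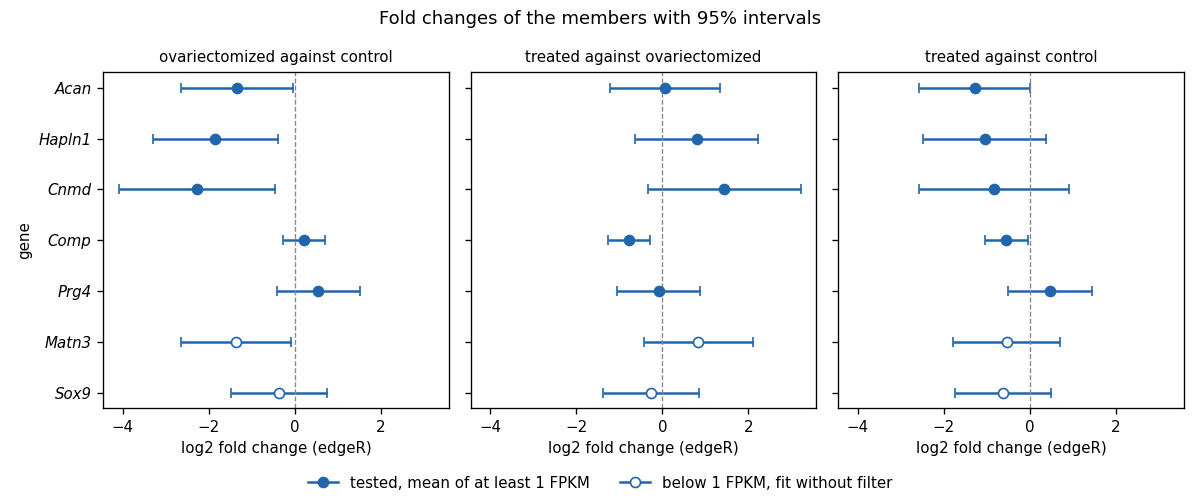
edgeR log2 fold changes with 95% intervals for 7 members in 3 comparisons, with the first-named group over the second. Filled points are the 5 tested members and open points, Matn3 and Sox9, come from the fit without a filter on low values. The intervals of Hapln1, Cnmd, Acan and Matn3 for ovariectomized against control rats and of Comp for treated against ovariectomized and for treated against control rats lie to the left of 0.

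The members below the filter held fewer reads. Sox9 (chromosome 10, 101288489 to 101293379, plus strand) had 92, 180 and 101 counts in treated, 238, 65 and 150 in ovariectomized and 146, 108 and 337 in control libraries. The 3 groups overlapped, and fitted without a filter on low values the log2 fold changes were -0.26 ± 0.50 (SE) for treated against ovariectomized, -0.36 ± 0.50 for ovariectomized against control and -0.62 ± 0.50 for treated against control rats. Their 95% intervals, -1.39 to 0.86, -1.48 to 0.76 and -1.75 to 0.50, cover differences of either sign. Matn3 (chromosome 6, 34071428 to 34091048, plus strand) had 63, 141 and 82 counts in treated, 36, 47 and 75 in ovariectomized and 42, 147 and 235 in control libraries. Ovariectomized against control rats gave -1.37 ± 0.56 (interval -2.65 to -0.10, edgeR adjusted p = 0.920) with overlapping groups, control replicate 1 lying at the ovariectomized level. That p was adjusted over the 21862 genes of the fit without a filter.

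Matn1, the matrilin of mature chondrocytes (chromosome 5, 149077412 to 149086957, plus strand), had 6, 28 and 0 counts in treated, 19, 8 and 0 in ovariectomized and 24, 0 and 19 in control libraries. Each group thus had 1 library listed at 0, and a count of 0 allows up to 3 counts by sampling alone. Epyc, a small leucine-rich proteoglycan of growth plate cartilage (chromosome 7, 38897278 to 38934985, plus strand), had 0, 38 and 4 counts in treated libraries, 0 in each of the 3 ovariectomized libraries and 10, 0 and 73 in controls. Its reads came mostly from treated replicate 2 and control replicate 3. No fold is given for Epyc because all 3 ovariectomized libraries, and 1 library in each other group, were listed at 0. The fitted Matn1 interval ran from -4.66 to 3.42 on the log2 scale for ovariectomized against control rats.

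Libraries of 1 group differed from each other more for these genes than for most. The SD of log2 CPM (counts scaled for library depth) within groups was 0.82 for Acan, 0.87 for Hapln1, 1.09 for Cnmd and 0.62 for Prg4, against a median of 0.185 over all genes tested. These values exceeded those of 95.1%, 95.6%, 97.0% and 92.1% of genes. Comp was steadier, at 0.298 (72.7% of genes below). Group means accounted for 63.2% of the variance of Comp over the 9 libraries, 52.8% of that of Cnmd, 50.02% of Hapln1, 41.3% of Acan, 15.6% of Prg4 and 14.0% of Sox9, against a median of 23.1% over all genes tested.

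**Figure D3:**
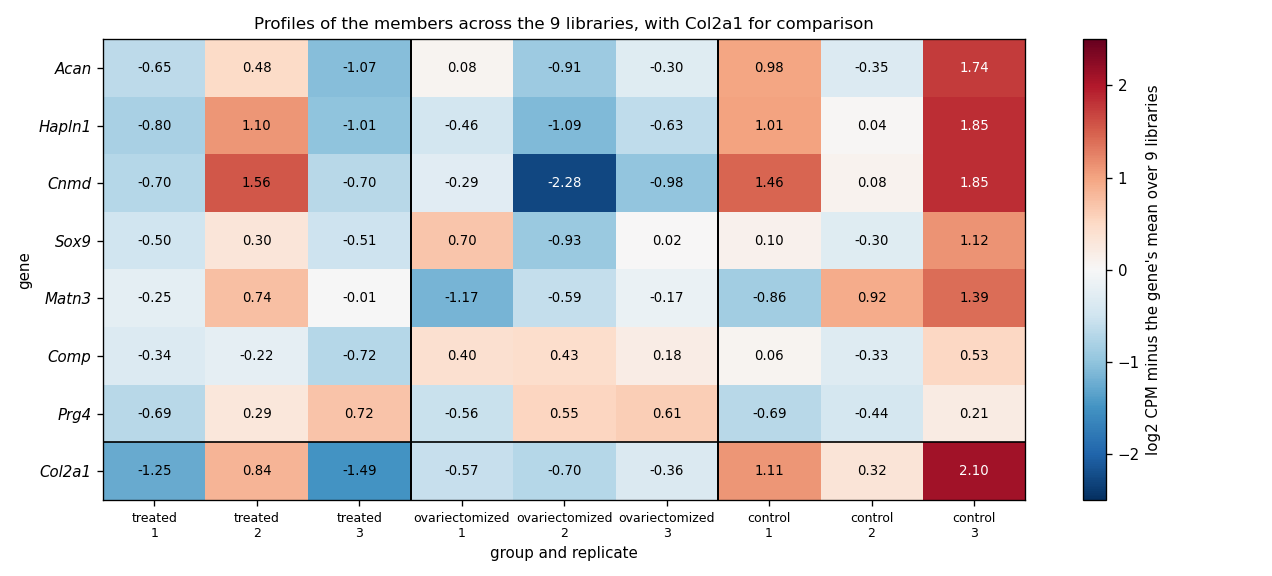
log2 CPM of 7 members and of the cartilage collagen Col2a1 in each library, minus the gene's mean over the 9 libraries, with columns for treated, ovariectomized and control replicates. Acan, Hapln1 and Cnmd share the high values of control replicates 1 and 3 and of treated replicate 2 with Col2a1 (2.10, 1.11 and 0.84 in control replicates 3 and 1 and treated replicate 2), whereas Prg4 is highest in treated replicate 3 (0.72) and Comp is below its mean in all 3 treated libraries.

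The profiles across the 9 libraries separated the members. Likeness was measured as the root mean square difference between log2 CPM profiles, each centred on its own mean, so that 0 is identity. Acan and Hapln1 differed by 0.333 and Hapln1 and Cnmd by 0.479, while Prg4 lay 1.14 from Acan and 1.56 from Cnmd, and Sox9 lay 0.475 from Acan. For scale, the median difference to all genes tested was 0.891 for Acan, 1.02 for Hapln1 and 1.31 for Cnmd. It was 0.634 for Sox9 and 0.589 for Prg4. Among the 50 tested genes nearest to Hapln1 were 6 of the 8 cartilage collagens, 2 members (Acan and Cnmd) and 7 of 15 other non-collagen cartilage proteins. For Acan these counts were 4 collagens, 1 member and 7 others, and for Cnmd 6, 2 and 5. For Sox9 and for Comp they were 0 collagens, 0 members and 1 other, and for Prg4 all were 0. The 3 genes outside the members nearest to Acan were Meltf (0.222), Mgp (0.228), which encodes the calcification inhibitor matrix Gla protein, and Snorc (0.243), a chondrocyte proteoglycan. Nearest to Sox9 were the osteoblast transcription factor gene Dlx5 (0.203), the osteoclast phosphatase gene Acp5 (0.223) and Ndrg4 (0.231). Nearest to Prg4 were Dnajc28 (0.198), Popdc2 (0.316) and the row named Mir290 (0.325), whose means over the libraries were 1.06, 1.03 and 1.62 FPKM.

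Ratios of FPKM within a library set the members against each other. Comp per Acan was 4.71, 2.34 and 4.87 in treated libraries, 4.77, 9.66 and 5.33 in ovariectomized libraries and 2.01, 3.86 and 1.64 in controls. Ovariectomized libraries lay above all controls, by a mean of 1.42 on the log2 scale, and treated libraries overlapped both other groups (2-sided exact permutation p = 0.2 for each). Hapln1 per Acan was 0.350, 0.599 and 0.405 in treated libraries, 0.268, 0.342 and 0.309 in ovariectomized libraries and 0.398, 0.509 and 0.422 in controls. Cnmd per Acan was 0.497, 1.10 and 0.668 in treated libraries, 0.402, 0.196 and 0.321 in ovariectomized libraries and 0.724, 0.697 and 0.562 in controls. Both ratios were therefore lower in all 3 ovariectomized libraries than in any other library, by 0.53 and 1.16 on the log2 scale relative to controls. Set against Col2a1 instead of Acan, ovariectomized and control libraries overlapped for both genes. The mean log2 differences were then 0.026 for Hapln1 and -0.607 for Cnmd.

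Relative to Col2a1, the main collagen of cartilage and itself at a log2 fold change of -1.90 ± 0.67 (SE) in ovariectomized against control rats, Sox9 stood at 0.0258, 0.0107 and 0.0301 in treated libraries, 0.0376, 0.0130 and 0.0201 in ovariectomized libraries and 0.00767, 0.00995 and 0.00785 in controls. All treated and all ovariectomized ratios lay above all controls, by means of 1.26 and 1.35 on the log2 scale. This was not particular to Sox9. Prg4 per Col2a1 did the same, by 2.22 and 2.23. Comp per Col2a1 did so in ovariectomized libraries (1.98) but overlapped the controls in treated ones (1.30). Acan per Col2a1 overlapped the controls in both groups. No share over all genes was computed for such ratios. Sox9 per Acan did not separate the groups from the controls. Treated and ovariectomized libraries both overlapped the controls, at mean differences of 0.659 and 0.791 (2-sided exact permutation p = 0.2 for each). Hapln1 per Col2a1 was 0.116, 0.102 and 0.118 in treated libraries, above the ovariectomized (0.0920, 0.0647 and 0.0704) and the control libraries (0.0794, 0.0697 and 0.0716). The mean log2 differences were 0.576 and 0.602. Cnmd per Col2a1 was likewise higher in all treated libraries than in either other group, by 1.33 and 0.725. Across the 33 ratio tests (11 ratios in 3 comparisons) 14 reached the smallest possible 2-sided exact permutation p of 0.1, which is 0.236 after Benjamini-Hochberg adjustment, so none could pass.

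**Figure D4:**
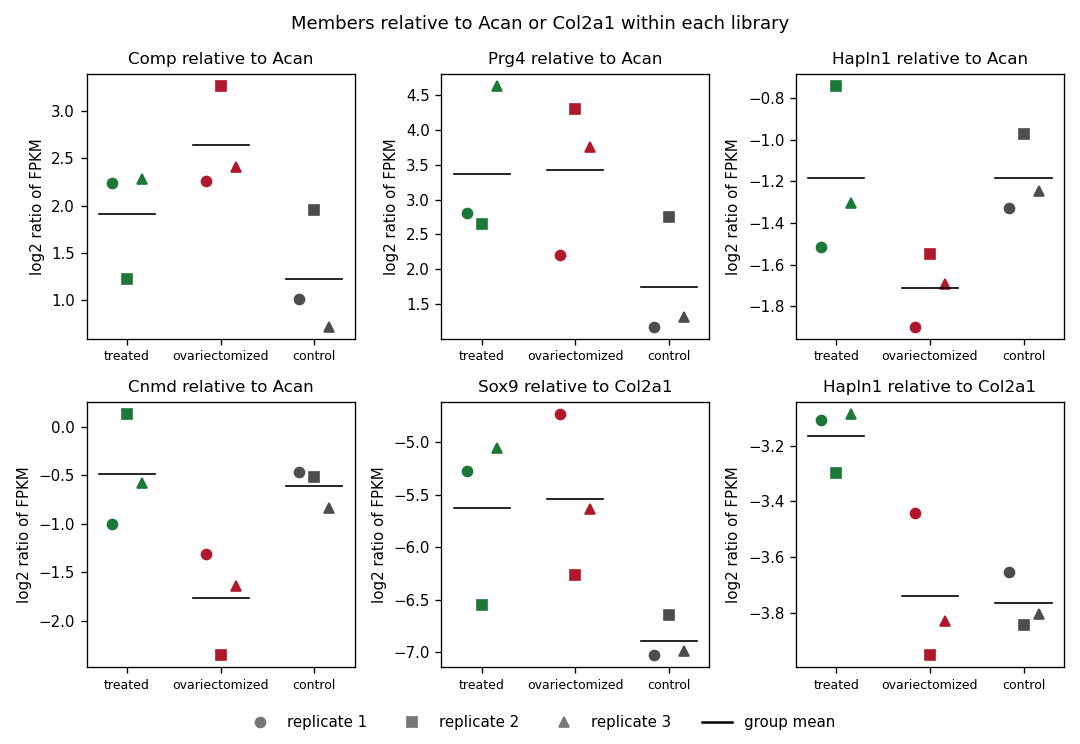
log2 ratios of FPKM for 6 pairs of genes in treated, ovariectomized and control libraries (n = 3 each), with a line at each group mean. Ovariectomized libraries form the lowest group for Hapln1 and Cnmd relative to Acan and lie above all controls for Comp relative to Acan and Sox9 relative to Col2a1.

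Promoter sequences, taken from RefSeq on the build GRCr8, are given for 3 members with different profiles: Acan and Hapln1, which ran together, and Prg4, which ran apart. Each window covers 250 bases before to 50 bases after the start site in the table (for Prg4 a start site inside the outermost bounds of the gene), and the table held 6 of the 9 members. Capitals mark matches to the core SOX motifs AACAAT and ACAAAG, searched on both strands, and no matches overlapped.
Acan, chr1:142390701-142391000, plus strand: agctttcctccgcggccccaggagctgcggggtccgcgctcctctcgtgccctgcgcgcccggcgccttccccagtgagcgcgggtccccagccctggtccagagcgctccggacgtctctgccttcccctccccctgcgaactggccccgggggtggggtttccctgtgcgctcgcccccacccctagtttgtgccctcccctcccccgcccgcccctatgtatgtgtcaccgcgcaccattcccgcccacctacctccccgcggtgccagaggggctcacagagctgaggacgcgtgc
Hapln1, chr2:22366717-22367016, plus strand: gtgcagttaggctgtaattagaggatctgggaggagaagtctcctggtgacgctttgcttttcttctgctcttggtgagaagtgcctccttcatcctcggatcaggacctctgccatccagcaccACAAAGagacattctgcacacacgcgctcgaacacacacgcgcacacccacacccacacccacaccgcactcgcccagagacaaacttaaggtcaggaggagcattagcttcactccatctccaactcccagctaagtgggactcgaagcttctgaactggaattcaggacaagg
Prg4, chr13:65054176-65054475, minus strand: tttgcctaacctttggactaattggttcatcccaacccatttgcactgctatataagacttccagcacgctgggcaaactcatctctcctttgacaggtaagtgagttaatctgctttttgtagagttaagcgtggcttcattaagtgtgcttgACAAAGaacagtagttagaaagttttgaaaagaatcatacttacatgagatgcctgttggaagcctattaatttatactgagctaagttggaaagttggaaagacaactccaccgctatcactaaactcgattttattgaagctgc
Hapln1 had 1 match, to ACAAAG at bases -125 to -120 from the start site, and Prg4 had 1, to ACAAAG at -96 to -91. The windows of Acan, Comp, Matn3 and Epyc had none. Of all 33469 promoters of this length 27.7% held either motif, 11.7% AACAAT and 18.8% ACAAAG, so 2 of 6 is near that share. The Acan window was 73.0% G and C and the Prg4 window 39.3%, against a median of 51.7%.

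Other genes of cartilage were grouped in lists by role, chosen with earlier results of these libraries known. All 8 cartilage collagens had lower estimates in ovariectomized than in control rats (median log2 fold change -1.69; 51.3% of all genes tested had a lower estimate). Of these, 5 were lower without overlap, against 2.05% of all genes tested, including Col9a3 at -1.96 ± 0.60 (SE) and Col9a2 at -1.49 ± 0.48. Of 15 other non-collagen cartilage proteins 13 had lower estimates, with a median of -0.49, among them the secreted protein gene Mia (-1.38 ± 0.57), Snorc (-1.36 ± 0.59) and Mgp (-1.17 ± 0.53). Among 12 tested chondrocyte regulators 10 had lower estimates (median -0.15), including Ihh, the hedgehog signal of prehypertrophic cells (-1.05 ± 0.44), Fgfr3 (-0.91 ± 0.36), a brake on growth plate proliferation, and Pth1r (-0.81 ± 0.36). The 8 hypertrophic chondrocyte genes all had lower estimates, with a median of -0.67, and Col10a1 was at -2.29 ± 0.88. This list shares Col10a1 with the collagens, Ihh with the regulators and Mmp13 with the degrading enzymes. It also shares Spp1, Ibsp and Alpl with the osteoblast and bone matrix list, so the lists are not independent of each other. Enzymes that build the chondroitin sulfate chains of aggrecan were split, 12 with lower and 10 with higher estimates and a median of -0.004, and the lowest p belonged to the sulfotransferase gene Chst11 (-0.44 ± 0.13). Of 11 matrix-degrading enzymes and inhibitors 9 had lower estimates (median -0.17), with the smallest p for the metalloproteinase gene Adamts9 (-0.67 ± 0.30), and the aggrecanase gene Adamts5 was at -0.33 ± 0.33. The 8 articular surface and synovium genes, which include Prg4, had a median of 0.05, and Htra4 was at 0.90 ± 0.37. In each of these lists 0 members passed at an adjusted p of 0.05 over all genes in edgeR or in DESeq2.

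For treated against ovariectomized rats 51% of all genes tested had a lower estimate and the same lists had medians of 0.54 (collagens, 7 of 8 higher), -0.05 (other non-collagen proteins, 9 of 15 lower), 0.14 (regulators), 0.03 (hypertrophic genes), 0.08 (chondroitin sulfate synthesis, 16 of 22 higher), -0.09 (degrading enzymes and inhibitors) and -0.21 (articular surface and synovium). Thbs4, a thrombospondin of the family of Comp, was at -1.03 ± 0.26 (SE) and passed in DESeq2 (adjusted p = 0.0326) but not in edgeR (adjusted p = 0.929). The collagen-binding proteoglycan gene Fmod, at -1.13 ± 0.34, and Cilp, at -0.67 ± 0.23, passed in neither (DESeq2 adjusted p = 0.123 and 0.434, edgeR adjusted p = 0.929 for both). All 9 tested tendon and fibroblast genes had lower estimates (median -0.53), and their part in the level of Comp was not tested. Over the same lists 0 genes passed in edgeR at an adjusted p of 0.05. Against controls, Thbs4 was at -1.01 ± 0.26 and Cilp at -0.91 ± 0.23 in treated rats, with adjusted p values of 0.0159 and 0.0280 in DESeq2 and of 0.469 and 0.473 in edgeR, where neither passed. Against controls 50% of all genes tested had a lower estimate, and the list medians were -1.05 (collagens, 8 of 8 lower), -0.73 (other non-collagen proteins, 14 of 15 lower), -0.12 (regulators), -0.48 (hypertrophic genes), 0.08 (chondroitin sulfate synthesis), -0.25 (degrading enzymes and inhibitors) and -0.06 (articular surface and synovium).

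Among the lists of other tissues, the median log2 fold changes for ovariectomized against control rats were 1.64 for skeletal muscle (8 of 8 higher), 1.19 for adipocytes (10 of 10 higher), 0.13 for tendon and fibroblast, -0.38 for osteoblast and bone matrix (10 of 10 lower) and -0.20 for erythroid genes (9 of 9 lower). Of all genes tested, 51.3% had a lower estimate. In DESeq2 2 muscle genes (Actn3 and Tnnc2) and 2 adipocyte genes (Lpl and Retn) passed an adjusted p of 0.05, against 0.425% of all genes tested. In edgeR 0 passed. For treated against ovariectomized rats they were -1.04, 0.02, -0.53, -0.17 and -0.32 in the same order. For treated against control rats the muscle median was 0.65, that of tendon and fibroblast -0.20, of osteoblast -0.58 and of erythroid genes -0.61, and all 10 adipocyte genes again had higher estimates. Here 2 adipocyte genes, 3 erythroid genes and 1 tendon and fibroblast gene passed in DESeq2, against 1.10% of all genes tested, and 0 in edgeR.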

How the data were processed

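Femur RNA was measured in 9 libraries, grouped by the sample titles. An FPKM value and 1 whole-number count for each gene and library had been deposited in 1 table, per the file headers; the submitters' processing notes name fastp, HISAT2 and StringTie, without versions. Neither how the authors made the counts nor the genome build is stated in those notes or headers. The authors' FPKM is 0.0001 wherever the count is 0. Counts were treated as unscaled. No replicate pair agreed within sampling noise (lowest chi-square per degree of freedom 64.6).

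A gene was fitted if its mean FPKM reached 1, using edgeR 4.0.16 (TMM, quasi-likelihood test, 1 fit over 9 libraries, R 4.3.3), with p-values adjusted by Benjamini-Hochberg over 13886 genes at a threshold of 0.05. Members below the filter were fitted, and their p-values adjusted, over the 21862 genes with any count. The SE is the log2 fold change over the root of F. This fit was first tested on simulated data. Non-overlap refers to FPKM. Alternatives were DESeq2 1.42.0, limma 3.58.1 on log2(FPKM + 1) and log2(FPKM + 0.1), other filters, median-of-ratios scaling, only 2 groups, a robust fit, a block for replicate number, and leaving out libraries singly. Leaving out control replicate 3 and treated replicate 2 together was added after seeing the data.

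The members, the 12 other lists and the tests were chosen with earlier results of these data known. All members were named, with up to 4 genes per list by smallest edgeR p (fewer were printed) and the 3 nearest profiles of Acan, Prg4 and Sox9. Of the listed symbols, 7 without a row were not analysed here. Profiles and spread used edgeR's log2 CPM with a prior count of 2, and exact permutation tests of ratios used log2 FPKM ratios. Limits on counts of 0 cover counting error only. Figures were drawn with matplotlib 3.10.9.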

Additional observations from a re-analysis of the deposited data

How the results depend on the processing

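With each library left out, the number of tested members called stayed at 0 in all 3 comparisons, as it did under every alternative run. The count of all genes called was 0 in edgeR in each comparison. It was 59, 38 and 153 in DESeq2 and 2, 1 and 1 with only the 2 groups compared, first for ovariectomized against control, then for treated against ovariectomized, last for treated against control rats. Leaving out 1 library gave 0 to 4, 0 to 2 and 0 to 3 calls in the same order, and leaving out control replicate 3 and treated replicate 2 together gave 3 for ovariectomized against control and 4 for treated against control rats. The first comparison had 4 calls without control replicate 1 and 2 without treated replicate 2. The second had 1 without control replicate 1, 2 without control replicate 2 and 1 without treated replicate 2. The last had 3 without either control replicate 1 or treated replicate 2, 2 without ovariectomized replicate 1 and 1 if control replicate 2 was dropped. The replicate block gave 0 calls in each comparison; same-numbered libraries did not deviate together (correlations of -0.13 to 0.18), so the numbers were not taken as pairs.

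The median log2 fold change of the 5 tested members ranged from -1.73 to -0.77, from -0.21 to 0.34 and from -1.88 to -0.45 with 1 library left out. Directions for ovariectomized against control rats and treated against control rats held for every tested member under every alternative. For treated against ovariectomized rats Acan turned to -0.002 with limma on log2(FPKM + 0.1), to -0.16 without ovariectomized replicate 2 and to -0.53 without treated replicate 2, and its range was -0.53 to 0.34. Hapln1 turned to -0.21 without treated replicate 2 (range -0.21 to 1.14), and Prg4 to between 0.08 and 0.22 without ovariectomized replicate 2 or 3 or treated replicate 1 (range -0.42 to 0.22). With control replicate 3 and treated replicate 2 both left out, Acan was at -0.533 and Hapln1 at -0.208. No median of the 5 was computed at a filter of 5 FPKM, which leaves out Hapln1. Read depth limits Matn1 and Epyc, with at most 83 counts per group; for Sox9 (373 to 591 counts per group) and Matn3 (158 to 424) the SD within groups, 0.69 and 0.80 on the log2 scale, is like that of the deeper Prg4 (0.62) and Acan (0.82).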
